A study of Homo sapiens with 4 samples.

Results

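Translation initiation and elongation factors were described across the 4 libraries: the genes whose products place the ribosome on the start codon of an mRNA and then move it along the coding sequence. Members were the protein-coding rows of the deposited table whose symbols begin with EIF1 to EIF6, EEF1 or EEF2, without the eIF2 alpha kinases (EIF2AK) and without EEF1E1. The rule matched 63 rows. EEF1D and EIF3F each had a second row at 0 that was not counted again, and the read-through gene EEF1E1-BLOC1S5 was set aside because its values were identical to those of EEF1E1. The remaining 60 members compare with 18650 loci with at least 1 fragment in the whole series. Fragments were found for 57 of the 60 members, and 3 had none in any library, among them EIF2S3L and EIF4E1B. EIF2S3L is a copy of EIF2S3, and 10.0% of the 100-base words of the EIF2S3 transcript also occurred in a gene that GENCODE names EIF2S3B.

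The study treated HT-29, a human colorectal cancer cell line, and NCM460, a human cell line from normal colon, with sturgeon chondroitin sulfate (SCS) at 100 μg/mL for 24 h, and sequenced their RNA beside that of untreated control cells. SCS is a sulfated polysaccharide prepared from a hybrid sturgeon. Each of the 4 conditions had 1 library, so the comparisons within a line and between lines have no replicate check and no p-value. Every interval given covers counting error only. The labels give 1 serum and antibiotic supplement for all samples, whereas the study's methods name more fetal bovine serum for NCM460 than for HT-29, and penicillin-streptomycin for the cancer lines without mention of it for NCM460. The control groups are labelled Control, with no further agent named.

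Initiation starts when eIF2 brings the initiator tRNA to the small ribosomal subunit with the help of eIF1, eIF1A, eIF3 and eIF5, while the cap-binding eIF4 proteins (eIF4E, the scaffold eIF4G and the helicase eIF4A with eIF4B or eIF4H) bring the mRNA. eIF2B recharges eIF2 with GTP, and phosphorylated eIF2 blocks eIF2B, which is the central brake of the integrated stress response. The 4E-binding proteins hold eIF4E away from eIF4G until mTORC1 phosphorylates them. In elongation, eEF1A delivers aminoacyl-tRNA, the eEF1B subunits recharge eEF1A, eEF2 moves the ribosome by 1 codon and eEF2 kinase switches eEF2 off. eIF5A, which carries the modified amino acid hypusine, helps the ribosome through difficult stretches and at termination. The intestinal epithelium renews itself rapidly and tumours derived from it depend on a high rate of protein synthesis.

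The libraries held 1156567 to 1654764 fragments. Fragments of the mitochondrial genome took 35.8% in untreated and 13.8% in treated HT-29, and 62.3% in untreated and 46.3% in treated NCM460, with a 95% exact binomial interval of at most 0.091 percentage points to either side. This left 507692 to 1383424 nuclear fragments. The mean transcript GC content of the nuclear fragments was 50.8%, 49.9%, 55.1% and 51.9% in the same order. The 12 colon epithelial markers summed to between 2659 and 6531 CPM (fragments scaled to a common library size with edgeR's TMM factors) and 2 or 3 of them were at 0 in each HT-29 library, against 6 in each NCM460 library: KRT20, VIL1 and LGALS4 were at 0 in both NCM460 libraries, whereas CDX2 was at 0 in both HT-29 libraries. The 8 mesenchymal markers summed to at most 37.0 CPM. Of the 6 white blood cell markers 4 or 5 were at 0 in every library, and their sum of up to 612 CPM came from LYZ in HT-29 and from the locus that CD68 shares with EIF4A1.

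Many mRNAs of the translation apparatus begin with a C followed by an unbroken run of pyrimidines, the 5′ terminal oligopyrimidine (TOP) start through which mTORC1 controls their translation. RefSeq start sites (GRCh38) were listed for 46 of the 57 members with fragments. No window was found for EEF1A2, EEF1D, EEF2KMT, EIF2S2, EIF3A, EIF3CL, EIF3E, EIF3G, EIF3H, EIF3L or EIF4EBP1. A C at the first base with at least 4 further pyrimidines, read on the transcribed strand only, was found at a start site of 12 members (26.1% of 46): EEF1A1, EEF1B2, EEF2, EIF2A, EIF2D, EIF2S3, EIF3D, EIF3F, EIF3K, EIF3M, EIF4A2 and EIF4B. The share over all 27305 genes of the table was 5.14%. Windows of 10 bases before and 20 bases from the start are printed for EEF1A1, EEF2 and EEF1B2, the elongation factors with a run, and for EIF4B, EIF3F, EIF3M and EIF2A as examples of initiation factors with it, with the run in capitals. EEF1G, EIF1 and EEF2K are shown as members without it.
EEF1A1 (chr6:73521013-73521042, minus strand): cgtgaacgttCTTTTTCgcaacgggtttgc
EEF2 (chr19:3985444-3985473, minus strand): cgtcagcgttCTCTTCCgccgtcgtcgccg
EEF1B2 (chr2:206159885-206159914, plus strand): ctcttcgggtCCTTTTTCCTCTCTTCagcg
EIF4B (chr12:53006446-53006475, plus strand): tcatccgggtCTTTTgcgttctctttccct
EIF3F (chr11:7987327-7987356, plus strand): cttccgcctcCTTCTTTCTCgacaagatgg
EIF3M (chr11:32583821-32583850, plus strand): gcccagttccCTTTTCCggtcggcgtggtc
EIF2A (chr3:150546777-150546806, plus strand): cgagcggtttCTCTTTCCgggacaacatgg
EEF1G (chr11:62573872-62573901, minus strand): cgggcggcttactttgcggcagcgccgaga
EIF1 (chr17:41688875-41688904, plus strand): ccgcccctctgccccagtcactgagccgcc
EEF2K (chr16:22206268-22206297, plus strand): gcccgcttctgctcaacctagaccagcccc
The longest run shown, 16 bases, is that of EEF1B2, and EIF4B has the shortest, 5 bases. An annotated start need not be the one these cells use.

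The members took 2.38% of nuclear fragments in untreated HT-29 (95% exact interval 2.36 to 2.41), 2.45% in treated HT-29 (2.43 to 2.48), 2.47% in untreated NCM460 (2.43 to 2.52) and 2.97% in treated NCM460 (2.93 to 3.01). The 6 eEF1 and eEF2 genes alone took more than the initiation factors in every library. Their share was 1.35% (1.32 to 1.37) and 1.5% (1.48 to 1.52) in HT-29 without and with SCS, and 1.62% (1.59 to 1.66) and 1.96% (1.92 to 1.99) in NCM460. The plot of shares by group shows that the eIF4 and eIF3 groups followed, and that eIF2B and the modifiers of elongation factors held the fewest fragments.

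**Figure D1:**
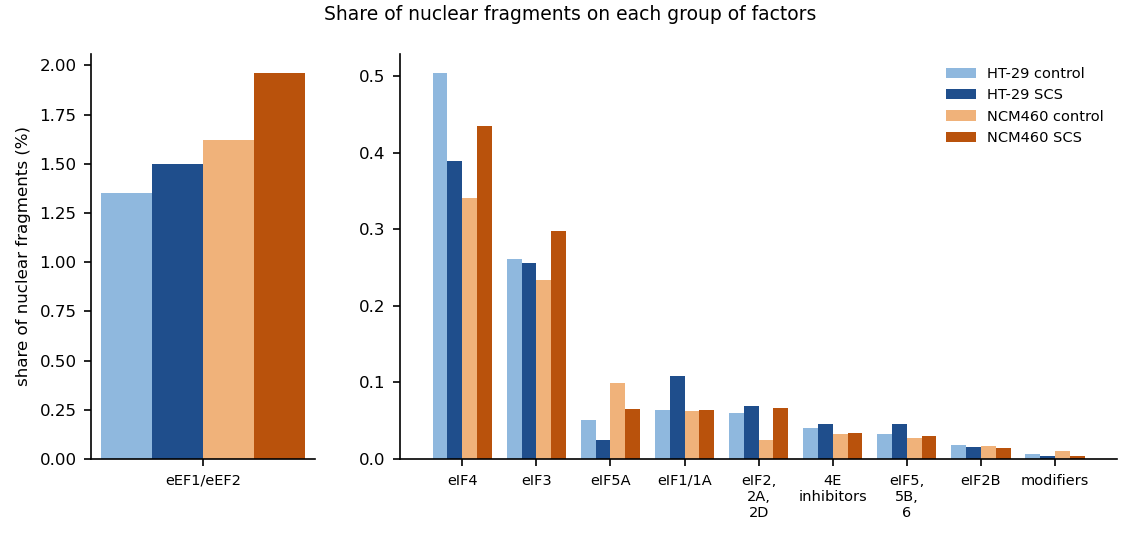
Bars give the percent of nuclear fragments that fell on each group of factors in each of the 4 libraries, with the eEF1 and eEF2 genes on a separate axis. The elongation factors stood at 1.35% to 1.96%, and the eIF4 group was at 0.504%, 0.390%, 0.341% and 0.435% in the order of the key.

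Per length (FPKM, deposited fragment values per kilobase of transcript scaled to library size), EEF1A1, EEF2 and EEF1G were the top members in every library. EEF1A1 led at 1348 FPKM in untreated HT-29, 1578 FPKM in treated HT-29 and 1983 FPKM in treated NCM460. In the NCM460 control EEF2 led at 2062 FPKM, ahead of EEF1G at 1115 FPKM and EEF1A1 at 999 FPKM. At the other end of the order, EIF4E3, a cap-binding protein of the eIF4E family, was listed at 0 in both control libraries and at 0.622 and 0.338 FPKM with SCS. With 1 library per condition the order has no spread to set neighbours apart.

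**Figure D2:**
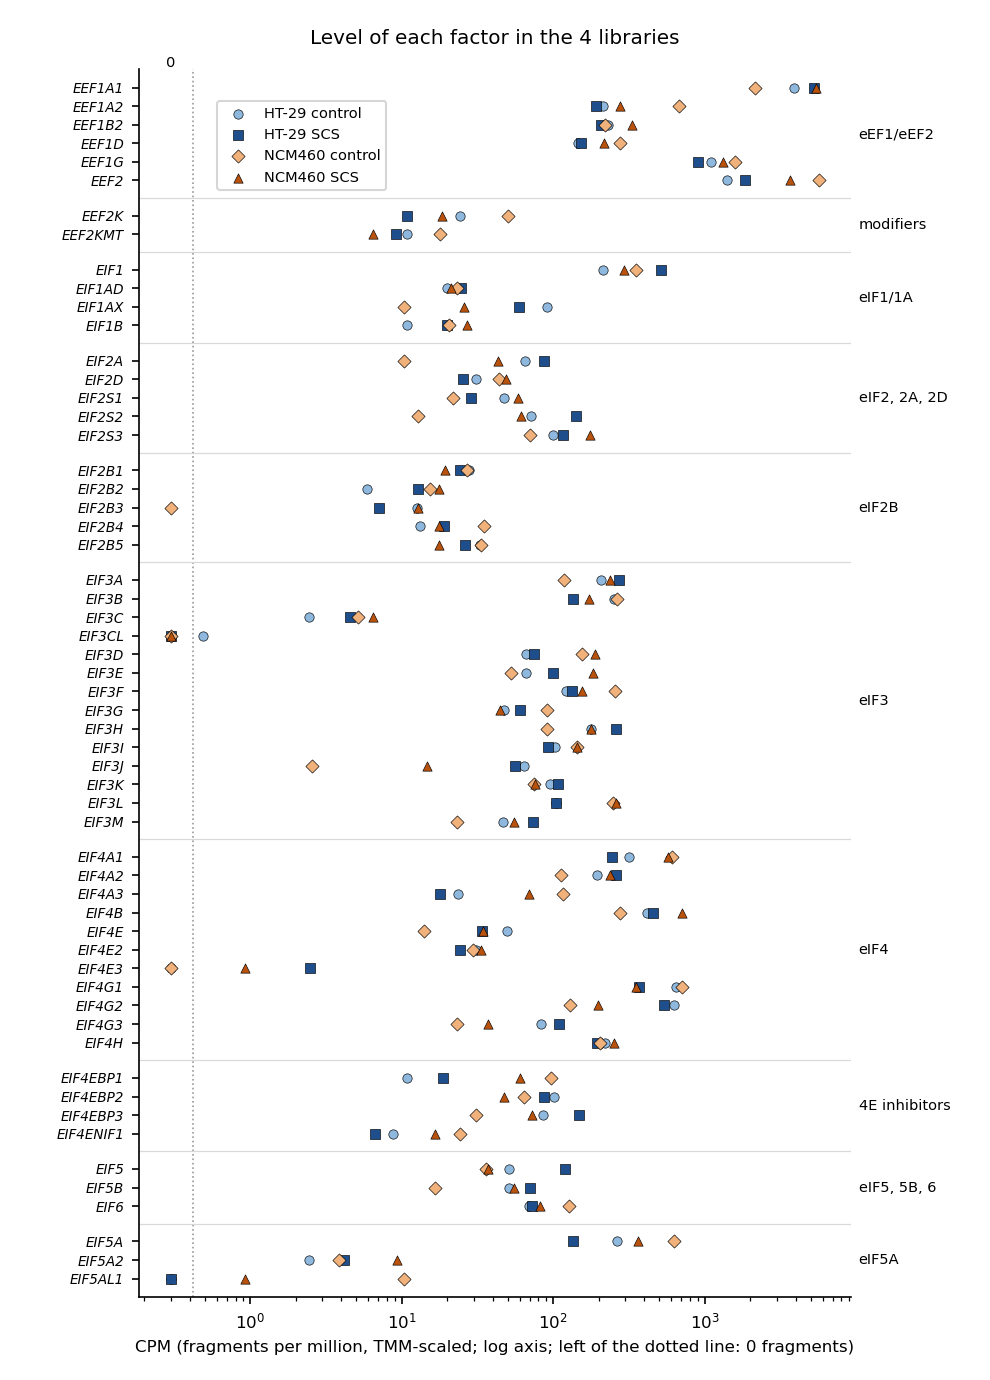
Points give the level of each of the 57 members in the 4 libraries as CPM on a log axis, with members ordered by group and libraries at 0 fragments drawn left of the dotted line, where they overlie each other. The lowest of the 4 points of EEF1A1 is at 2142 CPM and that of EEF2 at 1396 CPM, and EIF3J lies at 2.57 CPM in the NCM460 control against 64.5 CPM in the HT-29 control.

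The 2 treated libraries were then set against the control library of the same line. A member was called higher or lower when its CPM changed by more than 1.5-fold and the 95% exact interval of counting error left out no change. In HT-29, SCS went with higher levels of 9 of the 55 members tested (EIF1, EIF1B, EIF2B2, EIF2S2, EIF3M, EIF4E3, EIF4EBP1, EIF4EBP3 and EIF5) and lower levels of 6 (EEF2K, EIF1AX, EIF2S1, EIF3B, EIF4G1 and EIF5A). These are 16.4% and 10.9% of members, against 16.8% called higher and 14.8% called lower over all 12168 loci tested, so the share of members called was near or below the background. The median log2 fold change was 0.12 over members and 0.07 over all loci. With the trend on GC content subtracted, 7 members were higher and 7 lower, against 14.5% and 16.0% of loci. Scaling by total fragments, mitochondrial ones included, gave 20 higher and 3 lower, against 24.9% and 8.81% of loci. It raised the median of all loci to 0.31.

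In NCM460, SCS went with higher levels of 19 members and lower levels of 15 (34.5% and 27.3%), against 15.4% and 13.8% over 12657 loci, with a median log2 fold change of 0.16 over members and 0.03 over all loci. The members were better covered than most loci, with a median level of 67.8 CPM against 13.3 CPM, and over loci of at least 5 CPM the background was 19.6% higher and 18.2% lower. The change in NCM460 followed the GC content of the transcript. Spearman's rho between log2 fold change and GC content was -0.67 over the 55 members and -0.63 over 12596 loci, against -0.23 and -0.12 in HT-29 (genes share the libraries and are not replicates). The 19 members called higher in NCM460 had a median GC content of 40.6%, and the 14 called lower and tested in both lines 57.1%. After the GC trend was subtracted, 6 members stayed higher or became so (EEF1A1, EIF2B3, EIF2S2, EIF4B, EIF4EBP3 and EIF4H) and 7 were lower (EEF2K, EIF1, EIF2B1, EIF3F, EIF4EBP2, EIF5 and EIF5AL1), which is 10.9% and 12.7% of members against 5.53% and 5.91% of loci. That GC-subtracted background was not limited to well-covered loci. SCS treatment and the difference in GC content between these libraries cannot be told apart. Scaling by total fragments gave 31 members higher and 1 lower, against 32.6% and 2.05% of loci, with the median of all loci at 0.65. NCM460 differences that were called are therefore given with their GC-subtracted values.

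**Figure D3:**
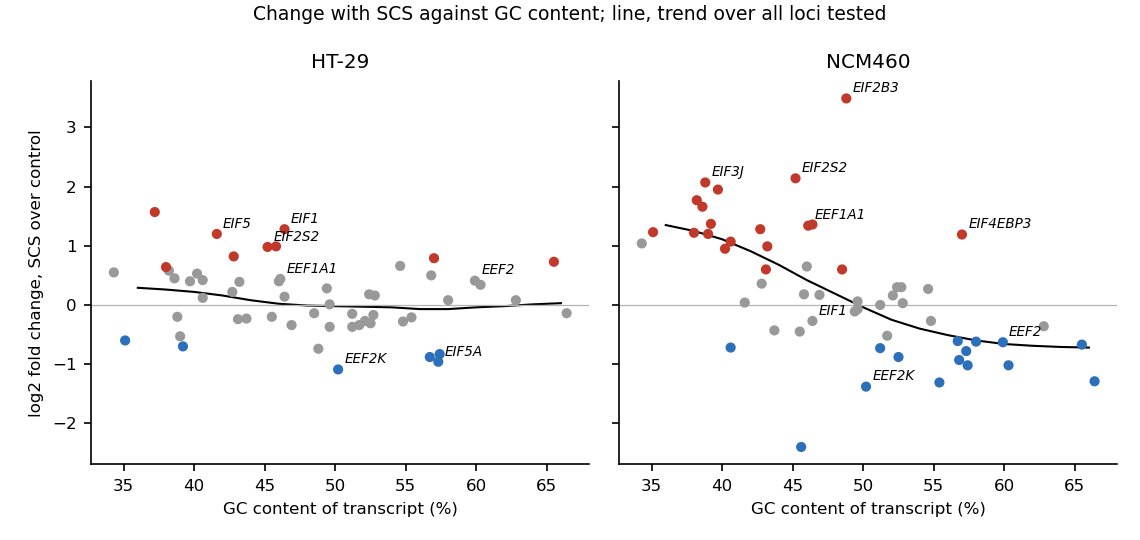
Points give the log2 fold change (SCS over control) of each member tested against the GC content of its longest protein-coding transcript, in red for called higher, blue for called lower and grey for neither. The line, the trend over all loci tested, falls in NCM460 from 1.25 at 38% GC to -0.60 at 58% GC and in HT-29 only from 0.26 to -0.07.

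Among the elongation factors, none of the 6 tested was called in HT-29, against 31.5% of all loci. EEF1A1, the main eEF1A gene, was at 3897 CPM in untreated and 5302 CPM in treated HT-29, and at 2142 CPM in untreated and 5427 CPM in treated NCM460. Its change was 0.44 log2 units in HT-29 (0.40 to 0.48), under the 1.5-fold limit, and 1.34 in NCM460 (1.26 to 1.42), or 0.92 with the GC trend subtracted, where the call held. EEF1A1 thus had its lowest level in the NCM460 control and, by CPM, a similar level in both treated libraries (by FPKM 1578 in HT-29 and 1983 in NCM460). EEF1A2, the eEF1A gene of muscle and neurons, was at 212 and 193 CPM in HT-29 without and with SCS, and at 673 and 275 CPM in NCM460. Its log2 fold change in NCM460 was -1.29 (-1.5 to -1.08), and -0.57 with the GC trend subtracted, which was no longer a call. At 66.4% GC it had the highest GC content of the members.

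EEF2, the translocase, was at 1396 CPM in the HT-29 control and 1858 CPM with SCS, and at 5687 and 3670 CPM in NCM460. This was a log2 fold change of 0.41 in HT-29 (0.34 to 0.48) and -0.63 in NCM460 (-0.69 to -0.57), a difference that came to 0.03 with the GC trend subtracted and to 0.06 with scaling by total fragments. EEF1B2, which recharges eEF1A, was at 230 and 208 CPM in untreated and treated HT-29, and at 220 and 333 CPM in NCM460. Where 4 values follow each other below, they stand in this order. It was called higher in NCM460 (0.60, 0.33 to 0.87), but not with the GC trend subtracted (0.46). EEF1G, the anchoring subunit of eEF1B, was at 1100, 906, 1591 and 1317 CPM. The study listed its protein, measured on gels, as higher with SCS in HT-29, which is not the direction of the RNA. The log2 fold change of the EEF1G RNA was -0.28 in HT-29 (-0.37 to -0.19) and -0.27 in NCM460 (-0.38 to -0.16), under the limit in both lines. It was 0.18 in NCM460 with the GC trend subtracted. EEF1D, the other exchange subunit, was not called in either line. EEF1G shared 93.4% of its 100-base words with other annotated genes, chiefly the overlapping gene AP002990.1. Its locus also holds TUT1, which carried identical values.

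The modifiers of elongation factors included a gene that was lower in both lines. EEF2K, the kinase that inactivates eEF2, had 50 fragments in the HT-29 control and 26 with SCS, and 39 and 20 in NCM460. On the CPM scale this was 24.4, 10.8, 50.1 and 18.5, so both treated libraries were below both controls. In log2 terms EEF2K changed by -1.09 in HT-29 (-1.92 to -0.46) and -1.38 in NCM460 (-2.29 to -0.62), or -1.31 with the GC trend subtracted. It was called lower in both lines with and without that trend. With scaling by total fragments the NCM460 call was lost (-0.70). EEF2KMT, a methyltransferase that acts on eEF2, had 22 fragments in each HT-29 library and 14 and 7 in NCM460. Its log2 fold change was -0.21 in HT-29 and -1.31 in NCM460 (-3.02 to -0.07), a call that was lost when the GC trend was subtracted (-0.83).

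In the eIF1 and eIF1A group, whose products hold the small subunit open while it scans for the start codon, EIF1 was higher with SCS in HT-29. It was at 212 CPM in untreated and 516 CPM in treated HT-29, and at 352 and 292 CPM in NCM460. By CPM the treated HT-29 library was above the other 3. By FPKM the untreated NCM460 library was the highest, at 459 against 352 in treated HT-29. In log2 units EIF1 changed by 1.28 in HT-29 (1.13 to 1.45) and -0.27 in NCM460 (-0.51 to -0.03), or -0.65 with the GC trend subtracted, where EIF1 was called lower. EIF1B, its close relative, had 22, 48, 16 and 29 fragments. It was called higher in HT-29 (0.82, 0.14 to 1.69) and not in NCM460 (0.36, or -0.46 with the GC trend subtracted). EIF1AX, the X-linked eIF1A gene, went the other way in HT-29. It had 187 and 144 fragments in HT-29 and 8 and 28 in NCM460. Its log2 fold change was -0.60 in HT-29 (-0.93 to -0.29) and 1.23 in NCM460 (0.16 to 2.68), and -0.15 in NCM460 with the GC trend subtracted. EIF1AD, a nuclear protein with an eIF1A-like domain, was at no more than 24.6 CPM in any library and was not called. The group as a whole took 0.0643% of nuclear fragments in untreated (0.0596 to 0.0693) and 0.108% in treated HT-29 (0.102 to 0.113).

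The eIF2 subunits did not move together in HT-29. EIF2S2, the beta subunit, had 145 and 338 fragments in HT-29 and 10 and 66 in NCM460. It was called higher in both lines, by 0.98 log2 units in HT-29 (0.70 to 1.28) and 2.14 in NCM460 (1.28 to 3.37). With the GC trend subtracted the NCM460 value was 1.62 by the whole transcript and 0.88 by the coding sequence, both calls. EIF2S1, the alpha subunit that stress kinases phosphorylate, had 97 and 69 fragments in HT-29 and 17 and 63 in NCM460. It was lower in HT-29 (-0.70, -1.19 to -0.26) and higher in NCM460 (1.37, 0.63 to 2.28), but 0.19 in NCM460 with the GC trend subtracted. EIF2S3, the gamma subunit, was at 99.2, 116, 70.6 and 174 CPM. It was called in NCM460 (1.28, 0.86 to 1.76) and no longer with the GC trend subtracted (0.45). EIF2A, a separate initiator tRNA factor that is not a subunit of eIF2, had 134, 209, 8 and 47 fragments. Its log2 fold change was 0.40 in HT-29 and 1.95 in NCM460 (0.99 to 3.37), or 0.82 with the GC trend subtracted, where it was not called. EIF2D, which can also deliver the initiator tRNA, was not called in either line.

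Of the 5 subunits of eIF2B, the exchange factor for eIF2, 1 was called in HT-29 and 3 in NCM460, all on few fragments. Over all loci tested, 31.5% were called in HT-29 and 29.2% in NCM460. EIF2B2 had 12 and 31 fragments in HT-29 and 12 and 19 in NCM460, and its log2 fold change in HT-29 was 0.99 (0.14 to 2.23). EIF2B3 had 26 and 17 fragments in HT-29, where it was not called (-0.74). In NCM460 it had 0 and 14 fragments, so that it was at least 3.36-fold higher with SCS against a floor of 3 fragments per library. EIF2B4 had 27, 46, 27 and 19 fragments, and EIF2B5 had 67, 63, 26 and 19. Both were lower in NCM460 (-0.93 and -0.88), neither with the GC trend subtracted (-0.38 and -0.59). EIF2B1 had 21 fragments in each NCM460 library, and its log2 fold change of -0.45 became -0.94 (-1.91 to -0.02) with the GC trend subtracted, which was a call.

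The eIF3 complex is the largest initiation factor and the scaffold for the others on the small subunit, and 13 of its 14 genes with fragments were tested. In HT-29, 1 was higher and 1 lower (7.69% each, against 16.8% and 14.8% of all loci), and the median log2 fold change was 0.18. EIF3B, a core subunit, was at 253 and 136 CPM in HT-29 and at 264 and 173 CPM in NCM460, so the treated libraries were the lower ones in both lines. The log2 difference was -0.88 in HT-29 (-1.09 to -0.69) and -0.61 in NCM460 (-0.91 to -0.32), but -0.06 in NCM460 with the GC trend subtracted and 0.08 with scaling by total fragments. EIF3M was at 46.9, 73.7, 23.1 and 55.5 CPM and was called higher in both lines. Its differences of 0.64 in HT-29 (0.28 to 1.02) and 1.22 in NCM460 (0.48 to 2.11) came to 0.37 and -0.04 with the GC trend subtracted, neither of which was a call.

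In NCM460, 5 eIF3 genes were higher and 3 lower (38.5% and 23.1%, against 15.4% and 13.8% of all loci). With the GC trend subtracted 0 were higher and 1 lower (7.69%), against 5.53% and 5.91% of loci. EIF3E was at 52.6 CPM in the control and 182 CPM with SCS (1.77, 1.30 to 2.31), or 0.53 with the GC trend subtracted. EIF3A, the largest subunit, was at 118 and 236 CPM (0.99, 0.65 to 1.36), and EIF3H at 91.2 and 178 CPM (0.95, 0.56 to 1.38), or 0.21 and -0.14 with the GC trend subtracted. EIF3J, a loosely bound subunit, had 2 and 16 fragments (2.07, 0.44 to 5.69, or 0.86 with the GC trend subtracted), against 132 and 135 in HT-29. All 4 had transcripts with 38.2% to 43.2% GC, and none was called with the GC trend subtracted. EIF3G was at 91.2 and 44.4 CPM (-1.02, -1.60 to -0.49) and fell short of a call with the GC trend subtracted (-0.35). EIF3F was at 256 CPM in the NCM460 control and 154 CPM with SCS (-0.72, -1.03 to -0.42), against 122 and 133 CPM in HT-29. Its GC-subtracted value depended on which sequence stood for the gene: it was -1.77 by the longest transcript, with 40.6% GC, and -0.36 by the coding sequence, with 56.5% GC. EIF3C had 5, 11, 4 and 7 fragments and EIF3CL had 1, 0, 0 and 0. EIF3C shared 95.1% of its 100-base words with EIF3CL, a near-identical copy, so neither level can be taken as the output of this core subunit. The remaining subunits EIF3D, EIF3I, EIF3K and EIF3L were not called in either line, with log2 fold changes from -0.15 to 0.18 in HT-29.

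The eIF4 group moved in both directions. EIF4G1, the main scaffold, was at 649 CPM in the HT-29 control and 366 CPM with SCS, and at 711 and 350 CPM in NCM460. Both treated libraries were below both controls, with log2 differences of -0.83 in HT-29 (-0.95 to -0.70) and -1.02 in NCM460 (-1.21 to -0.83), or -0.44 (-0.64 to -0.26) with the GC trend subtracted, which is under the 1.5-fold limit. Scaling by total fragments gave -0.55 in HT-29 and -0.33 in NCM460, neither of which was a call. EIF4G2, a related scaffold that does not bind eIF4E, was at 632, 536, 130 and 197 CPM. It was called only in NCM460 (0.60, 0.25 to 0.96), and its value there was -0.19 with the GC trend subtracted. EIF4G3 was at 83.1, 110, 23.1 and 37.0 CPM and was not called with SCS in either line.

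EIF4B, the cofactor of the helicase, was at 415 and 457 CPM in HT-29 and at 276 and 713 CPM in NCM460. The NCM460 difference was 1.36 (1.15 to 1.59) and stayed a call with the GC trend subtracted (0.99, 0.78 to 1.22), while the HT-29 difference was 0.14 (0.01 to 0.27). EIF4H, which acts like EIF4B, was at 204 and 252 CPM in NCM460 and was called only after the GC trend was subtracted (0.60). Of the helicase genes, EIF4A1 was at 318, 245, 607 and 577 CPM, and EIF4A2 at 194, 259, 112 and 237 CPM. EIF4A1 was not called in either line, and EIF4A2 was called higher in NCM460 (1.07, 0.73 to 1.45) but not with the GC trend subtracted (0.02). The EIF4A1 locus also holds CD68 and SENP3, which carried identical values. EIF4A3, the helicase of the exon junction complex, was at 116 and 69.4 CPM in NCM460 (-0.73, -1.20 to -0.28), and at -0.56 with the GC trend subtracted. EIF4E, which binds the cap, had 101, 81, 11 and 37 fragments. It was called higher in NCM460 (1.20, 0.27 to 2.40), but not with the GC trend subtracted (0.01), and its HT-29 value of -0.53 (-0.99 to -0.11) became a call only with the GC trend subtracted (-0.78). EIF4E3 had 0, 6, 0 and 1 fragments, which put it at least 1.70-fold higher with SCS in HT-29 against a floor of 3 fragments per library, a call that was lost under 4 of the alternatives, the GC trend among them.

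Among the inhibitors of eIF4E, EIF4EBP1 had opposite signs in the 2 lines. It had 22 and 45 fragments in HT-29 and 75 and 65 in NCM460. On the log2 scale EIF4EBP1 changed by 0.73 in HT-29 (0.03 to 1.61) and -0.67 in NCM460 (-1.18 to -0.18), but 0.05 in NCM460 with the GC trend subtracted and 0.01 with scaling by total fragments. EIF4EBP2 was at 102, 86.6, 64.2 and 47.2 CPM and was called only in NCM460 after the GC trend was subtracted (-1.15). EIF4EBP3 was at 86.0, 149, 30.8 and 72.1 CPM and was called higher in both lines, with 0.79 in HT-29 (0.53 to 1.06) and 1.19 in NCM460 (0.55 to 1.95), or 1.75 with the GC trend subtracted. Its fragments could not be told from those of ANKHD1, whose transcripts run into EIF4EBP3 and which carried the same values. The GC content used for the subtraction, 57.0%, is that of the EIF4EBP3 transcript of 691 bases. It need not be that of these fragments, so the GC-subtracted value is uncertain. EIF4ENIF1, which carries eIF4E into the nucleus, had between 16 and 19 fragments in every library, although its deposited FPKM values ranged from 1.66 to 16.3.

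EIF5, which makes eIF2 hydrolyse its GTP at the start codon, was at 50.8 CPM in the HT-29 control and 119 CPM with SCS, and had 28 and 40 fragments in NCM460. The treated HT-29 library stood above the other 3, a difference of 1.20 on the log2 scale (0.89 to 1.56). For NCM460 the value was 0.04 (-0.69 to 0.79), and -0.91 (-1.64 to -0.16) with the GC trend subtracted, which was a call. EIF5 is among the genes that the study listed from these same HT-29 libraries, so its rise there is not independent evidence. EIF5B, which joins the ribosomal subunits, had 105, 169, 13 and 60 fragments and was higher in NCM460 (1.66, 0.85 to 2.72), but not with the GC trend subtracted (0.44). EIF6, which keeps the large subunit apart, was at 127 and 82.3 CPM in NCM460 (-0.62, -1.06 to -0.20), a difference that came to -0.02 with the GC trend subtracted and to 0.07 with scaling by total fragments.

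EIF5A was called lower with SCS in both lines as measured. It was at 264 CPM in the HT-29 control and 135 CPM with SCS, and at 629 and 365 CPM in NCM460. On the log2 scale this was -0.96 in HT-29 (-1.17 to -0.77) and -0.78 in NCM460 (-0.98 to -0.59). With the GC trend subtracted the NCM460 value was -0.21 by the whole transcript, which is no call, and -0.87 by the coding sequence, which is. With scaling by total fragments the NCM460 value was -0.09, which is no call. EIF5A shared 10.3% of its 100-base words with EIF5AL1, an intronless copy that had 0, 0, 8 and 1 fragments (-2.40 in NCM460, -8.95 to -0.57, or -2.87 with the GC trend subtracted). EIF5A2, the second eIF5A gene, had 5, 10, 3 and 10 fragments and was not called.

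**Figure D4:**
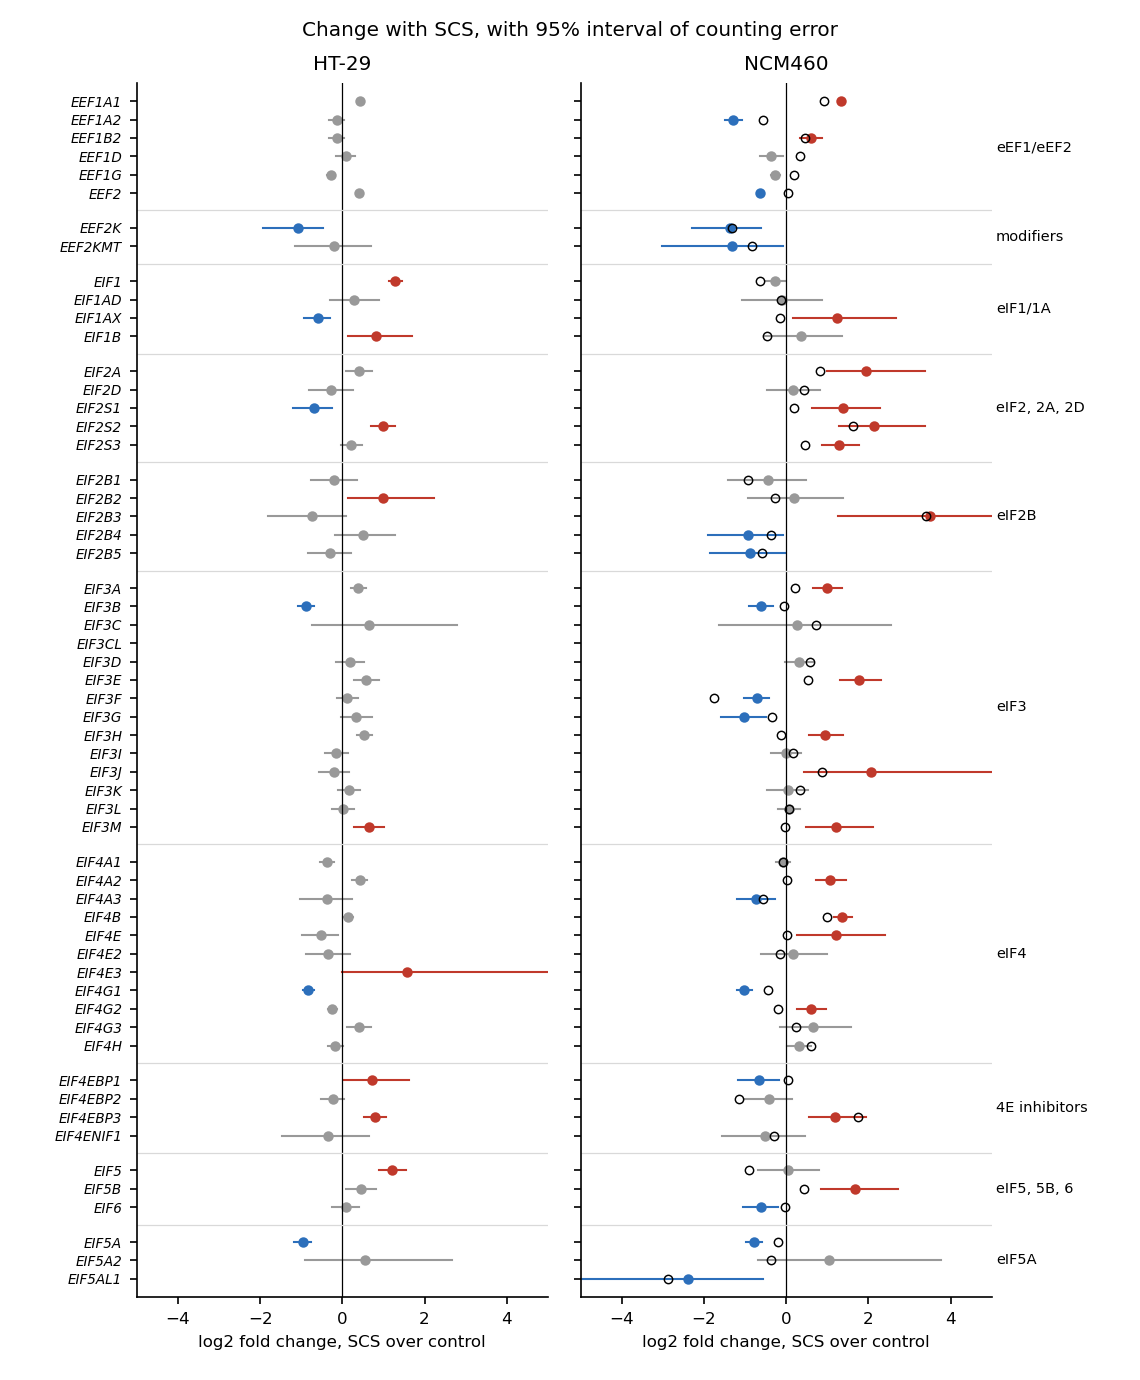
Filled points give the log2 fold change (SCS over control) of each member tested with its 95% interval of counting error, cut at 5 in either direction, in red for called higher, blue for called lower and grey for neither, and open circles give the NCM460 value with the GC trend subtracted. EIF1 (1.28) and EIF5 (1.20) stand out to the right in HT-29, and EEF2K lies to the left in both lines (-1.09 and -1.38).

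Set side by side, 3 members were called higher in both lines (EIF2S2, EIF3M and EIF4EBP3) and 4 lower in both (EEF2K, EIF3B, EIF4G1 and EIF5A). These are 5.56% and 7.41% of the 54 members tested in both, against 4.22% and 3.36% of 10849 loci. The NCM460 calls of EEF2K, EIF3B, EIF4G1 and EIF5A were lost with scaling by total fragments. With the GC trend subtracted in both lines, 2 members were called higher in both (EIF2S2 and EIF4EBP3) and 1 lower in both (EEF2K). These are 3.70% and 1.85%, against 1.18% and 1.61% of loci. The GC content used for EIF4EBP3 was that of its own transcript, not of ANKHD1. Opposite calls were found for 3 members as measured (EIF4EBP1, EIF1AX and EIF2S1), or 5.56% against 3.83% of loci. With the GC trend subtracted, EIF1 and EIF5 had opposite calls (higher in HT-29, lower in NCM460), or 3.70% against 2.04% of loci. On counts this small, and with loci not matched to the members in coverage, the shares are a description. The difference between the lines was not tested. In edgeR's quasi-likelihood test of a change shared by both lines over the 4 libraries, 0 of 52 members passed a Benjamini-Hochberg adjusted p of 0.05 (lowest 0.667). Without adjustment 3 members were under 0.05 (EEF2K, EIF2S2 and EEF1A1), and over all 9527 loci 6 passed with adjustment and 574 were under 0.05 without it.

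Members with a pyrimidine run at a start site, a grouping chosen after the values were seen, were mostly above 0. In HT-29, 10 of 12 were above 0 with a median log2 fold change of 0.20 (-0.27 to 0.64), and 13 of the 33 members tested without a run were above 0 with a median of -0.20 (-1.09 to 1.57). Of the 12, 1 was called in HT-29. With the GC trend subtracted 9 of 12 were above 0 there and 0 were called, with medians of 0.18 with and -0.23 without a run. In NCM460 the medians were 0.83 and 0.00 as measured, and 0.43 and -0.15 with the GC trend subtracted, with 10 of 12 members with a run above 0 in both cases. Over all loci tested, 6502 of 12168 were above 0 in HT-29. In NCM460 6447 of 12657 were above 0 as measured, and 6179 of 12596 with the GC trend subtracted. The signs depended on the measure. By deposited FPKM EEF2, EIF3D, EIF3F and EIF3K were lower with SCS in HT-29, although above 0 by CPM. EEF1A1, EIF2A, EIF2S3, EIF3M, EIF4A2 and EIF4B were higher by both. In NCM460 EIF2D, EIF3D and EIF3K were lower by FPKM and above 0 by CPM as measured. Other genes with a run were not compared, and an effect of the run was not tested. The exceptions among members with a run in NCM460 as measured were EEF2 and EIF3F, whose runs are printed above. Of the members called in HT-29, EIF3M had a run. The 12 others with a listed start, EIF1 and EIF5 among them, had none. The median GC content was 46.2% with the run and 48.8% without.

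**Figure D5:**
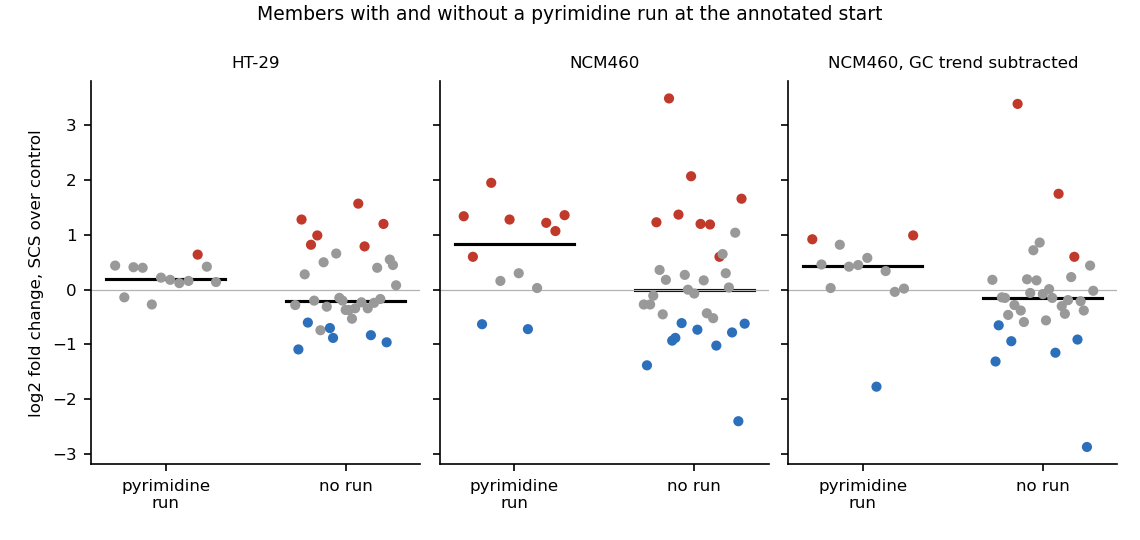
Points give the log2 fold change (SCS over control) of members with and without a pyrimidine run at an annotated start, in HT-29, in NCM460 and in NCM460 with the GC trend subtracted, and black lines give the medians. Members with the run lie mostly above 0 in all 3 panels, with medians of 0.20, 0.83 and 0.43.

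Between the lines without SCS, line and culture medium cannot be told apart. Here 18 members were higher in HT-29 than in NCM460 and 18 lower, each 32.7% of members, against 25.3% and 23.1% of 12691 loci. The members had a median level of 59.6 CPM against 14.0 CPM over all loci. Over loci of at least 5 CPM the background was 31.4% higher and 26.0% lower, so the share called higher was near it. With the GC trend subtracted 9 were higher (16.4%, against 18.5% of loci of any coverage tested) and 16 lower (29.1%, against 18.9%). This comparison uses the control libraries of the comparisons above. EEF2 was lower in HT-29 (1396 against 5687 CPM, log2 fold change -2.02, or -1.24 with the GC trend subtracted), and EIF4EBP1 was lower too (10.8 against 96.3 CPM, -3.02, or -1.93). EIF5A (-1.25, or -0.64), EIF4A3 (-2.24, or -2.06) and EIF1 (-0.73, or -1.15) were called lower in both settings as well. On the other side, EIF3J (4.10, or 2.73), EIF1AX (3.01, or 1.47), EIF2S2 (2.35, or 1.76) and EIF4G2 (2.27, or 1.38) were higher in HT-29 in both settings. EEF1A1 was higher in HT-29 as measured (0.86) and under the limit with the GC trend subtracted (0.40).

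Genes that act on these factors were taken from 8 lists with 45 genes, of which 43 were tested. In HT-29, 11 were higher and 4 lower (25.6% and 9.30%, against the 16.8% and 14.8% of all loci). With the GC trend subtracted there were 9 and 5 (20.9% and 11.6%, against 14.5% and 16.0%): EIF2AK2 (0.34) and PAIP1 (0.47) were no longer calls and ABCE1 (-0.66) was called lower. In HT-29, 3 of the 6 eIF2 alpha kinases and phosphatase subunits and 2 of the 11 genes of the mTORC1 arm were called, all higher. With the GC trend subtracted it was 2 of 6 and 2 of 11. Counts this small do not set a list apart from the 16.8% of all loci called higher. The genes called were the kinases EIF2AK3, which senses stress of the endoplasmic reticulum (1.51, 1.03 to 2.14), and EIF2AK2 (0.60, 0.31 to 0.90), the phosphatase subunit PPP1R15A, which reverses eIF2 phosphorylation (0.84, 0.69 to 0.99), and the mTORC1 inhibitors DDIT4 (3.08, 2.60 to 3.93) and SESN2 (2.41, 1.94 to 3.14). DDIT4 had 22 fragments in the HT-29 control, 242 with SCS, and 134 and 119 in NCM460. All 3 genes of the eIF4E kinases and eIF4A inhibitor list were called higher in HT-29: MKNK2 (1.65, 1.44 to 1.88), PDCD4 (1.16, 0.61 to 1.87) and MKNK1 (0.90, 0.48 to 1.39). The MKNK1 fragments could not be told from those of MOB3C, which carried the same values. By deposited FPKM MKNK1 did not rise in HT-29 (16.5 without and 15.5 with SCS). Like EIF5, DDIT4 and MKNK2 are among the genes that the study listed from these HT-29 libraries. Their rise is therefore not independent evidence, and the rise the study gave for DDIT4 was smaller. PAIP1 (0.59), DPH3 (1.20) and DPH7 (0.96) were the others called higher. The termination and recycling factors GSPT1 (-0.85, -1.13 to -0.59) and DENR (-0.95, -1.42 to -0.54) were lower, as were the mitochondrial elongation factor TUFM (-0.86) and the selenocysteine factor EEFSEC (-1.12).

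In NCM460, 10 of the 43 were higher and 9 lower as measured (23.3% and 20.9%, against 15.4% and 13.8% of all loci). With the GC trend subtracted 3 were higher and 2 lower (6.98% and 4.65%), which is near the 5.53% and 5.91% of all loci. The calls that held were EIF2AK4, the kinase that senses amino acid shortage (3.10 as measured and 2.82 with the trend subtracted), and the release factor ETF1 (2.37 and 1.63) on the higher side, and PPP1R15A (-1.67 and -1.04) and the mTORC1 subunit RPTOR (-1.55 and -0.90) on the lower. PABPC1, which binds the poly(A) tail, was called higher only with the trend subtracted (0.54 and 0.71). EIF2AK4 had 3 and 46 fragments in NCM460 and 55 and 50 in HT-29. Lower as measured but not with the trend subtracted were DDIT4 (-0.64 and -0.04), TSC2 (-1.07 and -0.39), AKT1S1 (-1.14 and -0.47), MKNK2 (-1.04 and -0.34), DHPS (-0.91 and -0.32), DPH1 (-1.20 and -0.54) and TUFM (-0.76 and -0.18). Higher as measured but not with the trend subtracted were EIF2AK2 (1.75 and 0.54), PDCD4 (1.09 and -0.11), PAIP1 (1.51 and 0.69), PAIP2 (1.57 and 0.37), DPH5 (1.79 and 1.03), GSPT1 (0.98 and -0.05), ABCE1 (1.44 and 0.21) and DENR (1.92 and 0.73). PPP1R15A had calls of opposite sign in the 2 lines, and the difference was not tested.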

How the data were processed

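RNA-seq libraries of 4 conditions were analysed, 1 each. Per the labels, the authors trimmed reads with cutadapt 1.9.1, aligned them with Bowtie2 and counted with HTSeq 0.6.1; the labels name hg19, but 53 of 60 members have the start and end of GENCODE 29, which is GRCh38. The deposited count columns are a signal, fragment counts that the authors divided by a library factor: 99.8% to 99.9% of values above 0 were whole multiples (tolerance 0.05) of 0.686, 0.577, 2.04 and 1.33, and fragments were recovered from these steps. The deposited FPKM values were used for levels per length only. Rows without a gene name (0.0403% to 0.0942% of fragments) were left out, and neighbouring rows with identical values were merged to 18650 loci, 10 members sharing theirs with another gene.

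CPM was scaled with TMM factors (edgeR 4.0.16, R 4.3.3) over the 4 libraries, with a prior count of 2 for log2 fold changes. Testing was limited to a mean level of 1 CPM or more, and loci were set against a 1.5-fold limit with an exact Clopper-Pearson 95% interval, and the calls were tested on simulated data with counting noise alone, which says nothing of the spread between cultures. No planned count test within a line was possible with 1 library per condition. GC trends were lowess fits (span 0.3) over all loci, on the longest protein-coding GENCODE 29 transcript. Shared sequence was counted as 100-base words found in a transcript of another locus. Start sites came from RefSeq (GRCh38.p14). All called members, the highest and lowest of each group, near-identical copies, EIF5 and EEF1G were named with values. Members, groups and lists were chosen with earlier results of these data known. Precision rests on 507692 to 1383424 nuclear fragments per library, and intervals cover counting error only.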

Additional observations from a re-analysis of the deposited data

Results flagged for a closer look

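The effect of SCS had opposite signs in HT-29 and NCM460 for 3 members, each called in both lines. EIF2S1 was at -0.70 in HT-29 and 1.37 in NCM460 on the log2 scale, EIF4EBP1 at 0.73 and -0.67, and EIF1AX at -0.60 and 1.23. The difference between the lines was not tested, since each condition had 1 library, and no NCM460 value of the 3 was a call with the GC trend subtracted (0.19, 0.05 and -0.15).

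Rows of pseudogenes lay outside the comparisons. Of 136 pseudogene rows named after these factors, 22 had fragments, in all 34 and 50 in untreated and treated HT-29, and 4 and 13 in NCM460. More than the 3 fragments that a count of 0 allows were found for EEF1DP3 (20 in the HT-29 control and 18 with SCS, against 0 and 1 in NCM460), EEF1A1P5 (4 and 7 in HT-29), EEF1A1P3 (5 in HT-29 with SCS) and EEF1A1P6 (5 in the HT-29 control). EEF1A1 shared 20.5% of its 100-base words with EEF1A1P5, so fragments of the 2 can be exchanged between them. Whether the pseudogenes are transcribed was not tested.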

How the results depend on the processing

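Scaling by total fragments, which includes the mitochondrial ones, moved the median of all loci from 0.07 to 0.31 in HT-29 and from 0.03 to 0.65 in NCM460. Of 55 members tested, it gave 20 higher, 3 lower and a median of 0.40 in HT-29, against 24.9% and 8.81% of loci. In NCM460 it gave 31 higher, 1 lower and a median of 0.77, against 32.6% and 2.05%. Between the lines it gave 31 higher and 4 lower, against 50.7% and 8.87%. Subtracting the GC trend gave 6 higher, 7 lower and a median of -0.02 in NCM460, against 5.53% and 5.91% of loci. It gave 9 higher in HT-29 between the lines, against 18.5%. A trend on the GC content of the coding sequence, chosen after seeing the data, gave 5, 9, -0.06 and 9. The shares of loci there were 6.64% higher and 7.29% lower in NCM460, and 20.4% higher between the lines. Thinning to 507692 nuclear fragments left 5 members higher in HT-29, against 9.88% of loci. Ratios of FPKM gave 13 lower and a median of -0.07 in HT-29, where 25.5% of loci were lower. They gave a median of -0.23 in NCM460. Between the lines 9 members were higher and 28 lower, against 24.9% and 43.2% of loci. The edgeR test of a shared change called 0 members in either direction (3 at an unadjusted p under 0.05, lowest adjusted p 0.667), with a median change of 0.04. DESeq2's size factors, TMM on nuclear fragments, a prior count of 0.5, the length trend, either other filter and leaving out merged loci kept every count within 1.5 times.

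Reversed signs were found in NCM460 alone. They were EEF2 (0.06), EIF6 (0.07), EIF3B (0.08) and EIF4EBP1 (0.01) with total fragments; EIF3M (-0.04), EIF4G2 (-0.19), EEF2 (0.03), EIF4EBP1 (0.05), EIF3H (-0.14) and EIF1AX (-0.15) with the GC trend; EIF3M (-0.02), EIF4G2 (-0.36), EEF1B2 (-0.08), EIF4A2 (-0.02) and EIF1AX (-0.10) with coding GC; and EIF4G2 (-0.61) and EIF1AX (-0.28) with FPKM. Single members were not rerun with merged loci left out, where EIF4EBP3 drops out, and none passed the edgeR test of a shared change. Both GC settings took EIF4EBP3 by its own transcript, although ANKHD1 shares its fragments. Under the other alternatives, 7 of 15 calls held in HT-29 (EIF5, EEF2K, EIF5A, EIF1, EIF2S2, EIF4EBP3 and EIF3B) and 5 of 34 in NCM460 (EIF2B3, EIF4B, EIF2S2, EIF4EBP3 and EEF1A1). The cause was not tested. The labels give no replicate numbers to pair, and the edgeR test of a shared change, with line as a term, is the one fit blocked on line.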
